A study of Nannospalax ehrenbergi and Mus musculus with 25 samples.

Results

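The collagen genes are the members described here. They were chosen by name, as every gene in either expression table whose symbol follows the pattern Col, number, a, number. This gave 44 genes of the 60812 in either table, of which the Spalax table holds 39 of its 27988 genes and the mouse table all 44 of its 47593. Col12a1, Col22a1, Col6a4, Col8a1 and Col9a2 are in the mouse table alone and were not analysed here in Spalax. The 44 members were separated into 11 fibrillar collagens (Col1a1, Col1a2, Col2a1, Col3a1, Col5a1, Col5a2, Col5a3, Col11a1, Col11a2, Col24a1 and Col27a1), the 6 basement membrane collagens of type IV (Col4a1 to Col4a6) and 27 other collagens, 22 of them in the Spalax table.

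The blind mole rat Spalax is a long-lived subterranean rodent, and 3-methylcholanthrene (3MCA) is a carcinogen that damages DNA and induces sarcomas. Wild-caught Spalax of both sexes, whose age can only be estimated and ran from about 2 to over 10 years, and male C57BL/6 mice of 3 to 4 months received a single subcutaneous injection of 3MCA at the neck, and muscle or tumor tissue was sequenced. The Spalax groups were untreated controls (4 libraries, uninjected side), injected animals that grew no tumor, here tolerant (4 libraries, injected side, sampled at 18 or 30 months), and tumor-bearing animals with 1 library from the tumor at the injected side (IS) and 1 from the uninjected side (UIS). Of the latter, 2 animals had granulomas, which are fibrotic growths of spindle cells (sampled at 14 and 16 months), and 2 had fibrosarcomas, which are malignant tumors of fibroblast-like cells (18 and 30 months). Mice gave 3 untreated control libraries and 3 animals with fibrosarcoma, each with an IS and a UIS library (11, 12 and 14 weeks). All control and tolerant libraries carried dual indexes and all libraries of tumor-bearing animals a single index, so that the indexing and the tumor-bearing state cannot be told apart. The Spalax controls were females, 3 of the 4 tolerant animals were males, and 3 of the 4 tumor-bearing Spalax were females.

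Collagens are the main structural proteins of the extracellular matrix. Each chain carries stretches of repeated glycine-X-Y triplets, and chains wind around each other into a helix that has room only for glycine at its centre. Fibrillar collagens have long unbroken helices and assemble into the fibrils of tendon, skin, scar and tumor stroma, type IV chains form the sheet-like network of basement membranes around muscle fibers and vessels, and the other collagens decorate fibrils, anchor membranes, form beaded filaments (type VI) or span the cell membrane. Fibroblasts are the main source of the fibrillar chains.

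The split between fibrillar and type IV collagens can be seen in the coding sequences. Mouse sequences of the build GRCm38 with the GENCODE vM21 annotation are shown, since no Spalax sequence was used here. They show the repeat that gives collagens their length and the interruptions that set type IV apart from the fibrillar genes. In 40 of the 44 genes at least 1 coding exon is exactly 54 bases long, and in 39 such an exon reads in frame as 6 triplets that each begin with a glycine codon. The glycine codon (GGN) that opens each triplet is in capitals, and every sequence is given 5′ to 3′ on the coding strand. The first 3 are such exons of the 3 abundant fibrillar chains, followed by Col11a2, which fell in the Spalax fibrosarcomas, then exons of Col4a1 and Col4a3, which moved in opposite directions in tumors, and of Col23a1.
Col1a1, chr11:94939904-94939957, plus strand: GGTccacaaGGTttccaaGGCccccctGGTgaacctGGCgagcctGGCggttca
Col1a2, chr6:4515481-4515534, plus strand: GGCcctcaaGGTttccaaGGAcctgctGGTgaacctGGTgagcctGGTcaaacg
Col3a1, chr1:45325360-45325413, plus strand: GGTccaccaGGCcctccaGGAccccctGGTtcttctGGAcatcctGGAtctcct
Col11a2, chr17:34051480-34051533, plus strand: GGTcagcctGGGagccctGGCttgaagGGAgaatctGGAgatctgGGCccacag
Col4a1, chr8:11245211-11245264, minus strand: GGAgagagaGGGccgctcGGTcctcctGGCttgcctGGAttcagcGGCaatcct
Col4a3, chr1:82651254-82651307, plus strand: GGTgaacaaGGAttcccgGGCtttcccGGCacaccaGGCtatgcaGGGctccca
Col23a1, chr11:51569461-51569514, plus strand: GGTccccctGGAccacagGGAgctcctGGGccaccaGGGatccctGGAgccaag

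In type IV chains the repeat is broken many times. The next stretches of Col4a1 and Col4a3 each show 3 triplets, then 6 bases (2 codons) outside the repeat, and then 3 triplets again.
Col4a1, chr8:11235141-11235200, minus strand: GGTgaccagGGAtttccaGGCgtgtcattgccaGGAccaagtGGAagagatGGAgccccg
Col4a3, chr1:82668979-82669038, plus strand: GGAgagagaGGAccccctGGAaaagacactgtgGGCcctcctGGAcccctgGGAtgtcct

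Counted over the whole coding sequence, the longest unbroken run of glycine triplets was 216 to 344 triplets in the 11 fibrillar genes, with 344 in Col3a1, 338 in Col1a1 and 339 in Col1a2. It was 39 to 66 triplets in the 6 type IV genes, whose repeat fell into 22 to 27 runs of at least 6 triplets each. In the other collagens the longest run did not exceed 113 triplets. The runs thus did not overlap between the fibrillar genes and either of the other classes. Type IV and the other collagens did overlap, with a longest run of 52 triplets in Col16a1 and 45 in Col6a3. Their repeats can be broken often too, with 18 runs of at least 6 triplets in Col7a1 and in Col16a1.

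**Figure D1:**
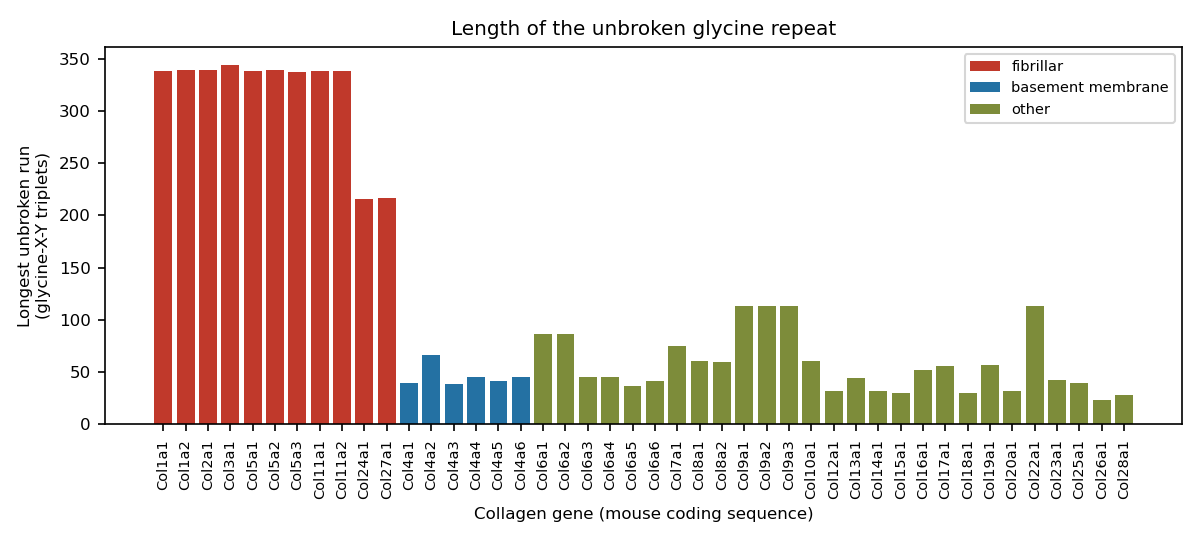
Longest unbroken run of glycine-X-Y triplets (number of triplets) in the mouse coding sequence of each collagen gene, with 1 bar per gene colored by class. The 11 fibrillar genes lie at 216 to 344 triplets, the 6 type IV genes at 39 to 66, and the other collagens at no more than 113.

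Gene expression was measured as normalised read counts, which are reads divided by 1 size factor per library. Depth was 17025447 to 23386729 reads per library in Spalax and 22143060 to 31179183 in mouse, and a normalised count of 10 rested on 6.95 to 19.3 reads. Skeletal muscle genes such as Ckm, Acta1 and Mb were present in every uninjected, control and tolerant library. Their summed normalised count was at least 959348 in those libraries of Spalax and at least 1092011 in those of mouse, against 177 to 4005 in the 4 Spalax IS libraries and 213 to 82604 in the 3 mouse IS libraries. Fibroblast genes (Dcn, Lum, Pdgfra and others) summed to 90658 and 104115 in the granulomas, 78849 and 17733 in the Spalax fibrosarcomas, 12343 to 33132 in the Spalax UIS libraries and 22594 to 29975 in the controls, and no marker of either list was at 0 in any library. Lum and Dcn made up most of the sum in the granulomas, and Thy1 of the same list was lower in both granulomas (153 and 86.4) than in their UIS (1160 and 369). In whole tissue, fewer cells of a type and less RNA per cell cannot be told apart. The tolerant library of animal 2251 stood apart from the other 3 tolerant libraries. Its skeletal muscle sum was 959348 against at least 1989629, its fibroblast sum 81243 against 7477 to 40305 and its macrophage sum 10515 against 488 to 2129. A list of 9 keratinocyte genes, chosen after the values were seen, summed to 4199 there with no gene at 0, against 979 to 1418 with 2 or 3 genes at 0 in the other tolerant libraries. The UIS library of granuloma animal 976 also had a lower skeletal muscle sum, 1051437, than the other 3 Spalax UIS libraries (2324129 to 2570989). Its keratinocyte sum was 2499 against 1105 to 1827, of which Tp63 alone gave 1634 (232 to 272 in the other UIS libraries), while Krt5, Krt14, Krt15 and Dsg3 were at 0. Medians of the comparisons that hold tolerant 2251 or UIS 976 are given with and without it, and counts for some of them.

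Collagen transcripts filled a large part of the Spalax tumors. In the granuloma IS libraries, 14.9% (animal 600) and 8.66% (animal 976) of all reads fell on the 39 collagen genes, while the uninjected sides of the same animals gave 0.0797% and 0.0457%. The fibrosarcoma IS libraries gave 3.92% (animal 2230) and 1.99% (animal 2240), against 0.0957% and 0.173% in their UIS. In the 3 mouse fibrosarcomas the share was 1.77%, 1.62% and 1.73%, and in their UIS 0.152%, 0.0579% and 0.0297%. Every IS library was above every UIS library of its species, and each granuloma was above each fibrosarcoma. Controls lay at 0.106% to 0.252% in Spalax and 0.0853% to 0.331% in mouse. Of the tolerant libraries, 2261 lay within the controls at 0.179%, 2218 and 2375 lay below them at 0.0904% and 0.0419%, and 2251 lay above them at 1.35%. Counting error is small beside these differences: the 95% Wilson interval of the largest share was 14.91% to 14.94%, and that of the smallest was 0.02904% to 0.03044%. Intervals cover counting error only and not the spread between animals, and the reads carry no molecular identifiers.

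The makeup of the collagen reads also differed. Fibrillar genes held 87.3% and 77.6% of the collagen reads in the granulomas, 77.8% (2230) and 46.5% (2240) in the Spalax fibrosarcomas and 65.4% to 69.3% in the mouse fibrosarcomas. In the Spalax controls they held 37.1% to 45.8%. The type IV genes held 1.12% and 1.57% of the collagen reads in the granulomas and 25.5% and 28.4% in the granuloma UIS, and in mouse they held 6.04% to 12.1% in IS and 17.6% to 53.6% in UIS. In fibrosarcoma 2240 the fibrillar share was close to that of control muscle although the total share was above every control.

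**Figure D2:**
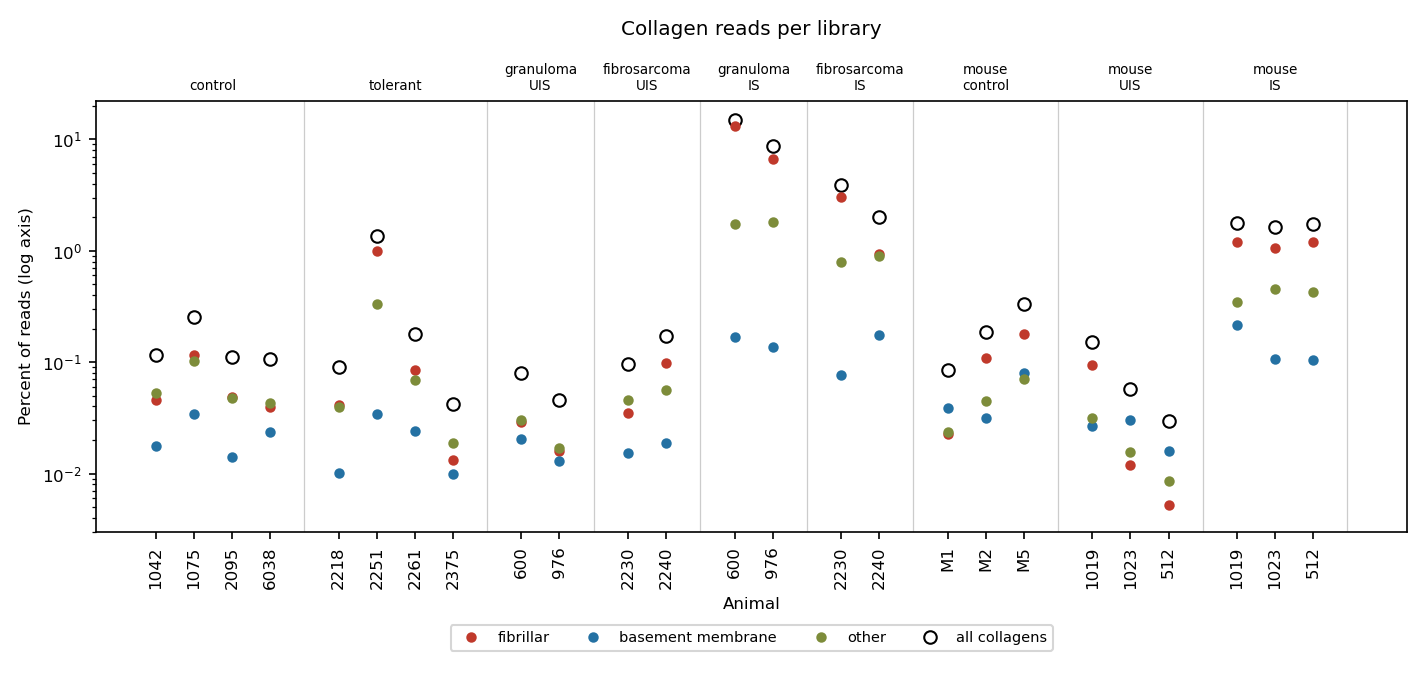
Share of all reads (%, log axis) that fell on collagen genes in each library, by group, with open circles for all collagens and filled points for the fibrillar, basement membrane and other classes. The open circles of the granuloma IS libraries lie at 14.9% and 8.66%, those of the Spalax fibrosarcomas at 3.92% and 1.99%, the mouse fibrosarcomas at 1.62% to 1.77%, and tolerant animal 2251 at 1.35%.

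The comparison of IS with UIS asked which genes differ between a tumor and uninjected muscle of the same animals. For each gene the difference is the log2 change of the normalised count + 1, with its standard error from limma, and a gene passed at an adjusted p value of at most 0.05 (Benjamini-Hochberg over all genes tested). In granulomas, 19 of the 35 collagens tested rose and none fell, where 24.3% of all 14735 genes passed, 11.7% higher and 12.6% lower. The median change was 4.10 for the collagens and -0.01 for all genes. Of the fibrillar genes 9 of 11 rose, of the type IV genes 2 of 6 and of the others 8 of 18. Col9a1, Col10a1, Col17a1 and Col25a1 were too low to test.

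The chains of type I and III collagen, the bulk of scar tissue, were among the largest differences. Col1a1 was at 677303 and 205712 in the granuloma IS libraries of animals 600 and 976 and at 642 and 670 in their UIS, a log2 change of 9.15 ± 0.66 (SE, adjusted p = 0.00492 by limma). Col1a2, its partner chain, stood at 340917 and 233915 against 1564 and 552 (8.25 ± 0.63, limma adjusted p = 0.00541). Col3a1, which forms thin fibrils early in wound repair, stood at 790955 and 367025 against 2489 and 1288 (8.23 ± 0.65, limma adjusted p = 0.00541). In each of these genes the lower granuloma library was over 100 times the higher UIS library, so that the groups were far apart. Col11a1, a minor fibril chain best known from cartilage, had 4638 and 2641 in IS and 3.62 and 0 in UIS, where the UIS values rest on 3 reads in all. Its ratio of IS to UIS was 1985 with an exact 95% counting interval of 679 to 9627, and limma gave 10.67 ± 0.91 (adjusted p = 0.00571). Col5a1, Col5a2 and Col5a3, the type V chains that nucleate fibrils, rose by 6.19, 7.05 and 4.55, Col24a1 by 5.01 and Col27a1 by 4.55 on the log2 scale. Of the fibrillar genes that did not pass, Col2a1, the cartilage chain, was at 23.2 and 14.5 in IS and 0 and 7.07 in UIS, and Col11a2 was at 79.8 and 38.7 in IS and 224 and 29.4 in UIS.

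The type IV genes split by pair. Col4a1 and Col4a2, the chains of nearly all basement membranes, rose in granulomas. Col4a1 had 11998 and 9462 in IS and 2250 and 1662 in UIS (2.46 ± 0.36, limma adjusted p = 0.0133). Col4a2 had 12864 and 8822 in IS and 1921 and 1273 in UIS (2.77 ± 0.40, limma adjusted p = 0.0127). Both rises were smaller than those of every fibrillar gene that passed. Col4a3 and Col4a4, chains of kidney, lung and neuromuscular basement membranes, were lower in both granulomas without passing. Col4a3 was at 0.726 and 3.02 in IS and at 103 and 10.6 in UIS (-3.72 ± 1.29, limma adjusted p = 0.0918). Col4a4 was at 2.18 and 5.44 in IS and at 106 and 16.5 in UIS (-3.26 ± 1.14, limma adjusted p = 0.0924). Col4a5, the chain that completes the trimer of Col4a3 and Col4a4, was at 97.3 and 30.2 in IS and 403 and 110 in UIS (-1.93 ± 0.93, limma adjusted p = 0.179). For these 3 genes all IS libraries were below all UIS libraries, and the UIS values of animal 976 were much lower than those of animal 600. In a fit over all Spalax groups, which shares 1 estimate of the spread, 25 collagens passed (20 higher, 5 lower), against 42.9% of all genes. Col4a3 and Col4a4 were among the lower. DESeq2 on the recovered reads also called 25 (22 higher, 3 lower), against 36.5% of all genes.

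Type VI collagen, the beaded filament of muscle and connective tissue, rose in its 3 main chains. Col6a3 had 85908 and 88056 in the granulomas against 1422 and 875 (6.28 ± 0.42, limma adjusted p = 0.0049). Col6a2 had 68352 and 52430 against 985 and 387 (6.60 ± 0.54, limma adjusted p = 0.00557). Col6a1 had 80783 and 38566 against 1547 and 588 (5.87 ± 0.64, limma adjusted p = 0.0079). No IS library overlapped with a UIS library in these genes. The remaining rises were Col16a1 (5.67) and Col14a1 (4.77), which coat fibrils, Col8a2 (5.12), a network chain of vessels and cornea, Col18a1 (4.10), the source of endostatin, and Col26a1. Col26a1 was at 37.7 and 68.9 in IS and had no read in UIS, and was at least 30.6-fold higher against a floor of 3 reads over the 2 UIS libraries. With Col26a1 at that bound the median of the collagens remained at 4.10. Col7a1, the anchoring fibril of skin, had 1752 and 18080 in IS and 162 and 518 in UIS (4.28 ± 1.19) and missed the threshold (limma adjusted p = 0.0542), but passed with the animal as a replicate block (adjusted p = 0.00918). Col20a1 was at 2.9 and 19.3 in IS and 24.1 and 133 in UIS (-2.70 ± 1.25, limma adjusted p = 0.167), both IS libraries below both UIS libraries.

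The calls rested on few libraries. Fewer collagens, and a smaller share of all genes, passed without IS 976, IS 600 or UIS 976, the library with the lower muscle sum. The median change of the collagens was then 3.09, 4.73 and 3.78, and 3.91 without UIS 600. With libraries scaled by their total reads instead of the size factors, the median of all genes moved by 0.731 in this comparison, by 0.801 in fibrosarcoma and by 1.06 in mouse, each toward higher values in the tumors. The tested collagens kept their excess over that median, with 20 higher and none lower in granulomas, and the share of higher genes among all called went from 48% to 75%.

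In the Spalax fibrosarcomas 17 of 32 collagens passed, 12 of them higher and 5 lower, where 36.3% of all 14696 genes passed (17.4% higher and 19% lower). The median change was 1.91 for the collagens and 0.03 for all genes. Scaled by total reads, 22 passed with 18 higher and 4 lower, while among all genes called the higher share went from 47.8% to 75.7%. Fibrillar genes gave 5 rises and 1 fall among 10 tested, type IV genes 2 rises and 2 falls among 6, and the others 5 rises and 2 falls among 16.

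Col1a1 was at 85128 and 30015 in the fibrosarcoma IS of animals 2230 and 2240 and at 1143 and 3455 in UIS (4.67 ± 0.77, limma adjusted p = 0.0151). Col1a2 was at 59958 and 57179 against 1753 and 4275 (4.42 ± 0.50, limma adjusted p = 0.00694). The lowest tumor value of each gene was over 8 times the highest UIS value. Col3a1 differed far more between the 2 tumors, 213119 in 2230 and 19532 in 2240, with 2322 and 9455 in UIS, and did not pass (3.78 ± 1.36, limma adjusted p = 0.0925). Both tumors were still above both UIS libraries, and DESeq2 called it (adjusted p = 0.000267). Col5a2, Col5a3 and Col24a1 rose by 3.56, 1.82 and 3.83. Col24a1 was not called by edgeR (adjusted p = 0.0636), with a pseudocount of 0.5 (limma adjusted p = 0.0519), without the filter (0.0743) or without any 1 library (0.055 to 0.205), and Col5a3 was not called in the fit over all Spalax groups (limma adjusted p = 0.0808). Col5a1 (18784 and 3588 against 879 and 1754) and Col11a1 (195 and 1316 against 75.3 and 37.6) did not pass. Col11a2 was the fibrillar gene that fell. It had 32.4 and 28.9 in the fibrosarcomas and 372 and 388 in UIS, with close replicates in both groups (-3.59 ± 0.38, limma adjusted p = 0.00607).

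The type IV pairs parted here too, with all 4 genes past the threshold. Col4a1 had 4559 and 12994 in IS and 1774 and 2054 in UIS (2.01 ± 0.55, limma adjusted p = 0.0492). Col4a2 had 4742 and 10220 against 1670 and 1812 (2.00 ± 0.43, limma adjusted p = 0.0271). Col4a3 was at 0 and 3.07 in IS and 45.5 and 38.8 in UIS (-4.41 ± 0.84, limma adjusted p = 0.0209). Col4a4 had 6 and 3.69 in IS and 31.3 and 35.2 in UIS (-2.58 ± 0.53, limma adjusted p = 0.0249). The 2 pairs did not overlap between IS and UIS, and moved apart within the same tumors. The call for Col4a1 was at the threshold and was lost with a pseudocount of 0.5 (limma adjusted p = 0.0506) or without the filter (0.0746). Col4a4 was not called with total scaling (limma adjusted p = 0.052) or without the filter (0.0509). Col4a5 had 688 and 285 in IS and 163 and 194 in UIS, with both tumors above both UIS libraries (1.31 ± 0.51, limma adjusted p = 0.112).

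Of the type VI chains, Col6a2 gave the clearest rise of all collagens in this comparison, 28324 and 28754 in IS against 1754 and 1865 in UIS (3.98 ± 0.23, limma adjusted p = 0.00206). Col6a3 had 26163 and 48003 against 1872 and 2975 (3.91 ± 0.44, limma adjusted p = 0.00689), and Col6a1 had 22814 and 30419 against 3165 and 2990 (3.10 ± 0.28, limma adjusted p = 0.00485). Col6a5, a chain of skin and epithelia, had the largest fitted change but was uneven, at 473 and 24 in IS and 0 and 6.06 in UIS (5.35 ± 1.77, limma adjusted p = 0.0758). Col16a1 rose by 3.30 and Col18a1 by 2.35, and Col14a1 (14504 and 4251 against 1179 and 2017) passed with the animal as a replicate block (limma adjusted p = 0.0489) and not without it (0.0555). Col20a1, a fibril-associated chain, fell from 152 and 98.2 in UIS to 2.4 and 6.76 in IS (-4.58 ± 0.65, limma adjusted p = 0.0108). Col23a1, a transmembrane collagen, fell from 146 and 50.9 to 8.4 and 7.99 (-3.25 ± 0.68, limma adjusted p = 0.0263). In both genes even the lower UIS library was at least 6 times the higher tumor.

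The calls depended on the UIS libraries, and so did the size of some fitted changes. The calls of the collagens and of all other genes were lost without UIS 2230 or UIS 2240. The median change of the collagens was then 1.92 and 1.86 and that of Col6a2 was 3.94 and 4.02. Some genes moved more, with Col1a1 at 3.87 and 5.47, Col24a1 at 2.44 and 5.22 and Col23a1 at -2.50 and -4.00. Without IS 2230 or IS 2240 more collagens, and a larger share of all genes, passed, with a median change of 1.5 and 1.41. Where a group is left with 1 library, that library is assumed to vary like the other group. edgeR called 16 collagens and DESeq2 24, where 34.7% and 43.3% of all genes passed.

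In the mouse fibrosarcomas 25 of 38 collagens passed, 21 higher and 4 lower, where 45.1% of all 15220 genes passed (22.8% higher and 22.3% lower). The median change was 1.90 for the collagens and 0.11 for all genes. With total scaling 28 passed (25 higher and 3 lower), and among all genes called the higher share went from 50.5% to 81.9%. Fibrillar genes gave 7 rises among 10, type IV genes 2 rises and 2 falls among 5, and the others 12 rises and 2 falls among 23. Col2a1, Col4a6, Col6a5, Col9a1, Col9a2 and Col10a1 were too low to test.

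Col1a1 was at 28179, 15538 and 39336 in the IS of animals 1019, 1023 and 512 and at 4109, 230 and 147 in UIS (5.64 ± 1.23, limma adjusted p = 0.0122). Col1a2 was at 40487, 44150 and 41370 against 5740, 564 and 263 (5.47 ± 1.06, limma adjusted p = 0.00876). Col3a1 was at 62571, 71468 and 56660 against 10928, 746 and 289 (5.57 ± 1.25, limma adjusted p = 0.0134). The tumors lay within 3 times of each other and the UIS libraries spread over more than 10 times, with animal 1019 the highest in all 3 genes. edgeR gave adjusted p = 0.0502 for Col1a1 and 0.0578 for Col3a1. Col5a1, Col5a2, Col5a3 and Col11a1 rose by 4.61, 4.42, 2.33 and 4.26. Col11a2 had 50.7, 35 and 65.3 in IS and 78.6, 112 and 64.8 in UIS, so that the groups overlapped slightly.

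Among the type IV genes, Col4a1 was at 17566, 8354 and 8575 in IS and 4370, 4522 and 2712 in UIS (1.52 ± 0.39, limma adjusted p = 0.0211). Col4a2 was at 9049, 6510 and 5479 against 2524, 2872 and 2480 (1.39 ± 0.26, limma adjusted p = 0.00783). Col4a3 fell, with 2.58, 2.37 and 4.74 in IS and 36.3, 49.5 and 38.9 in UIS (-3.36 ± 0.46, limma adjusted p = 0.00318). Col4a4 fell as well, with 9.82, 2.97 and 15.8 against 56.8, 95.9 and 63.3 (-2.99 ± 0.64, limma adjusted p = 0.0117). The 4 genes thus showed the split of the Spalax fibrosarcomas, without overlap between the groups. In the mouse genome 5.65% of the exon bases of Col4a3 lie under another gene, and whether the counting used the strand is not stated. Col4a5 was at 560, 149 and 148 in IS and 164, 66 and 43.2 in UIS. Each tumor was above the UIS of its own animal, although the groups overlapped, and the gene passed with the animal as a replicate block (adjusted p = 0.0268) but not without it (1.56 ± 0.72, limma adjusted p = 0.122).

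Col6a4, a type VI chain measured in mouse alone, had the largest change, with 323, 661 and 36.3 in IS and 19.3, 0 and 1.44 in UIS (5.77 ± 1.45, limma adjusted p = 0.0195). The main type VI chains rose together. Col6a3 had 8458, 23737 and 16213 against 1646, 479 and 168 (4.86 ± 0.83, limma adjusted p = 0.00597). Col6a2 had 8857, 9050 and 8457 against 1400, 288 and 163 (4.44 ± 0.75, limma adjusted p = 0.00556). Col6a1 had 12383, 11632 and 11832 against 2246, 438 and 263 (4.22 ± 0.75, limma adjusted p = 0.0066). In these genes, too, the lowest tumor value was over 5 times the highest UIS value. Col12a1 (5.03), Col16a1 (4.49), Col18a1 (4.43), Col8a1 (3.86), Col14a1 (2.57), Col15a1 (2.12) and Col7a1 (1.20) rose as well. Col23a1 had 156, 1427 and 422 in IS and 112, 98 and 57.6 in UIS (2.39 ± 0.80) and was at the threshold, with a limma adjusted p of 0.0489, and 0.05002 with the animal as a replicate block. The falls outside type IV were Col22a1 and Col20a1. Col22a1, a chain of the muscle-tendon junction, was at 6.2, 2.37 and 4.21 in IS and 36.3, 402 and 305 in UIS (-5.05 ± 0.96, limma adjusted p = 0.00816). Col20a1 was at 36.7, 11.9 and 25.3 against 82.2, 110 and 140 (-2.23 ± 0.53, limma adjusted p = 0.0168), and did not pass with total scaling (adjusted p = 0.11).

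Leaving out 1 mouse library at a time left 20 to 24 collagens called, where 27.8% to 46.1% of all genes passed. Col23a1 was lost without any of UIS 1019, UIS 1023, UIS 512, IS 1023 or IS 512 (limma adjusted p of 0.0766, 0.101, 0.121, 0.105 and 0.0903). Col6a4, Col11a1, Col15a1 and Col20a1 were each lost in at least 1 such fit, with adjusted p values of no more than 0.0672, 0.0639, 0.0988 and 0.0564.

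**Figure D3:**
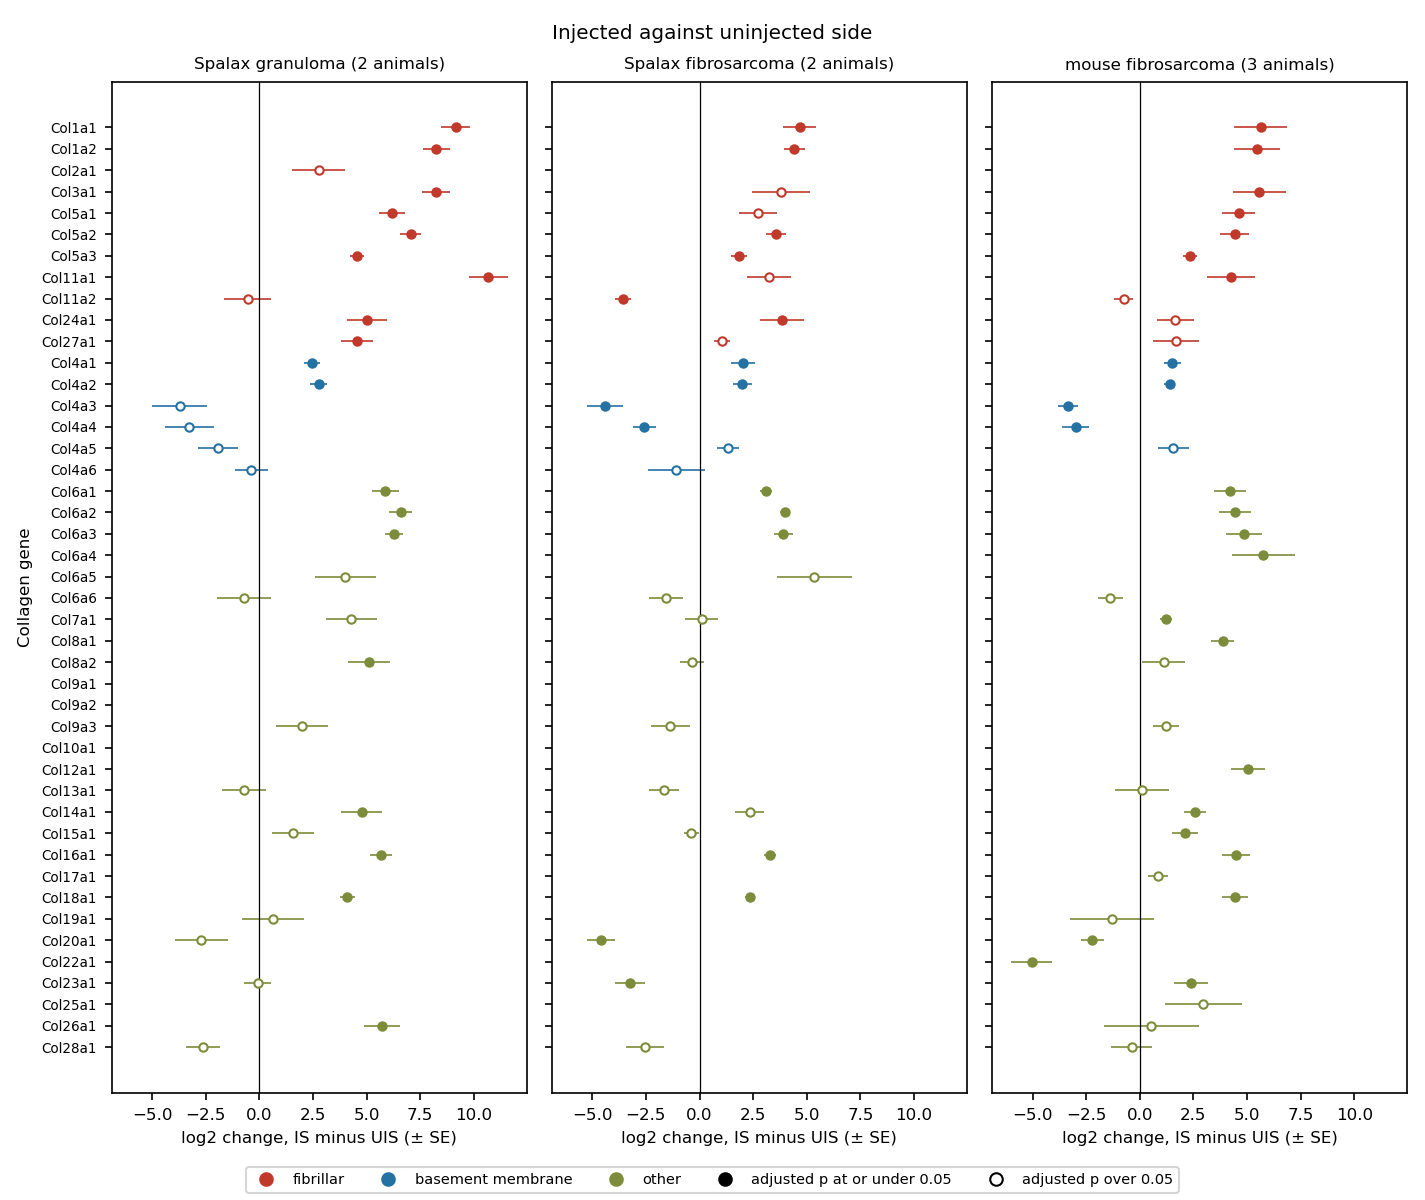
Log2 change of IS against UIS (log2 of normalised count + 1) for each collagen tested, in Spalax granuloma, Spalax fibrosarcoma and mouse fibrosarcoma, with bars of ± 1 SE, colored by class and filled where the adjusted p is at most 0.05. Most fibrillar genes, other than Col11a2, and the main type VI chains Col6a1, Col6a2 and Col6a3 lie to the right in all 3 panels, up to 9.15 for Col1a1 and 10.67 for Col11a1 in granuloma, while Col4a3, Col4a4 and Col20a1 lie to the left.

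**Figure D4:**
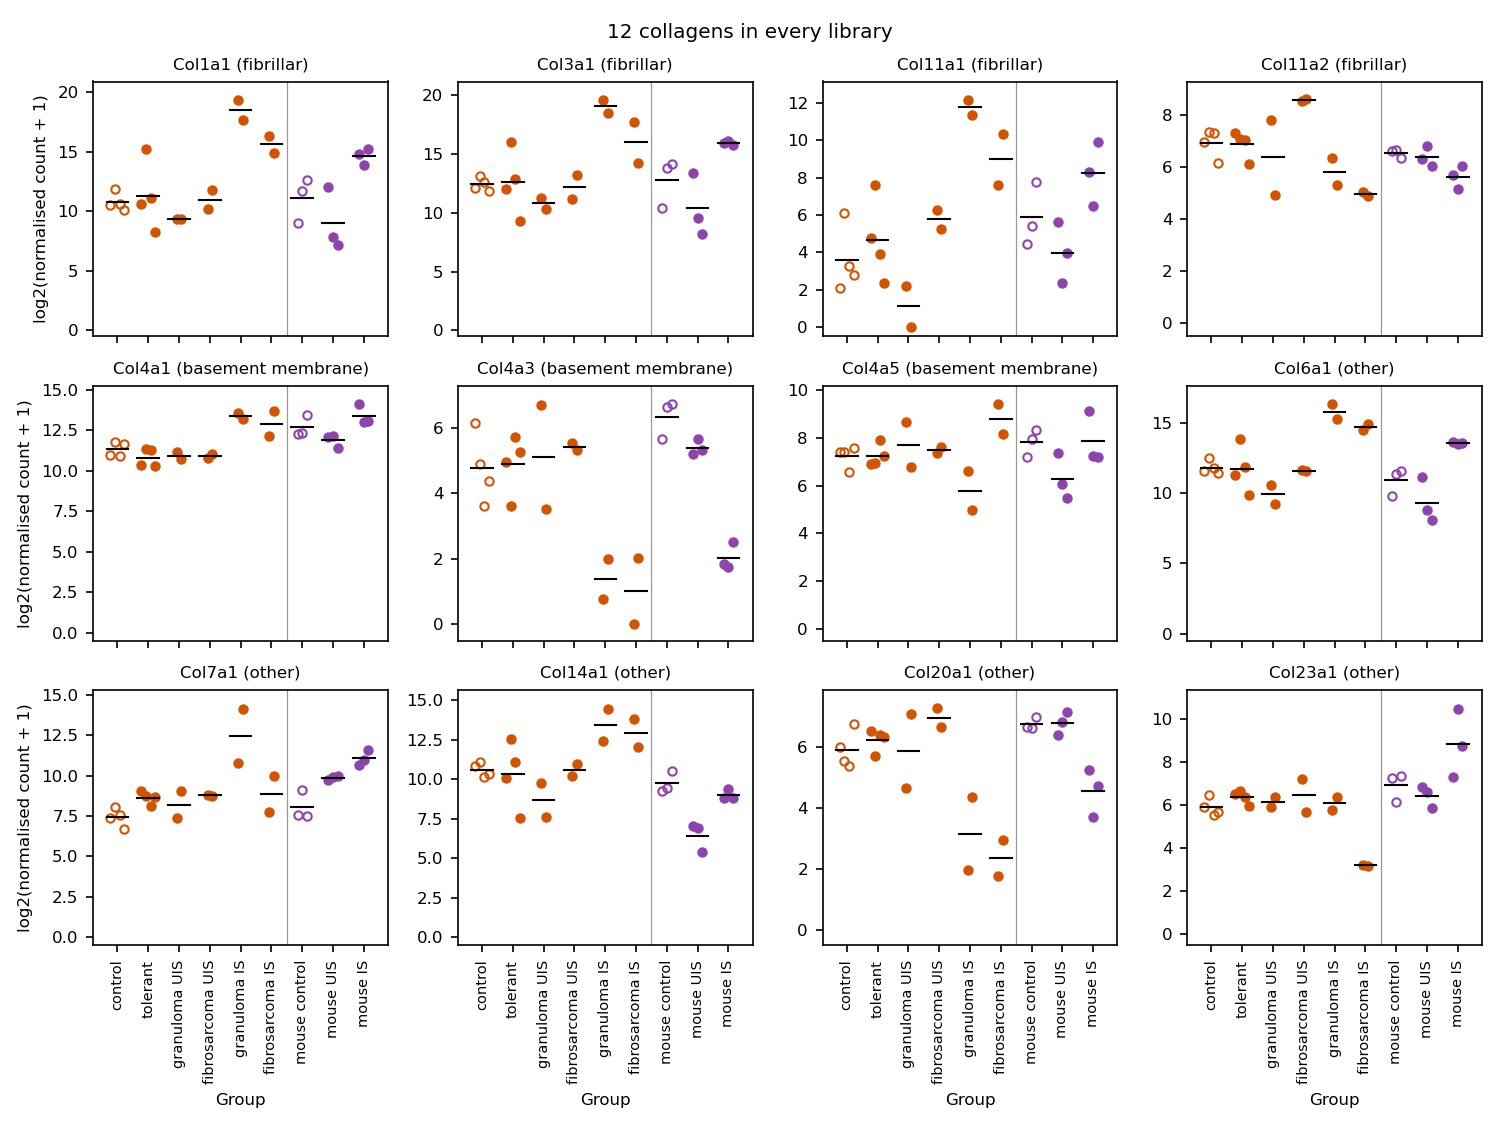
Log2 of the normalised count + 1 of 12 collagens in each library, by group, with Spalax in orange, mouse in purple, controls as open circles and bars at the group mean of the log2 values. Col1a1 and Col3a1 peak in the granuloma IS libraries, Col4a3 is lowest in the tumors of both species, and Col23a1 is low in the Spalax fibrosarcomas (8.4 and 7.99) and high in the mouse ones (156 to 1427).

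The tumors of Spalax were next compared with each other, to ask whether a fibrotic growth and a malignant tumor carry different collagens. Of 30 collagens tested between fibrosarcoma IS and granuloma IS, 28 had lower fitted values in fibrosarcoma and 2 higher, with a median of -1.52 against 0.03 over all genes. None passed by limma, as none of the 14562 genes did (0%), and none by edgeR (0%), while DESeq2 called 9 (1 higher and 8 lower) and 1.05% of all genes. At an unadjusted p under 0.05 there were 12 collagens, against 4.06% of all genes. Both fell without granuloma IS 600 or without granuloma IS 976, with a median of -1.62 and -1.53. Both fibrosarcomas were below both granulomas in 21 of the 30 (14.7% of all genes), and above them in 1, Col4a5 (16.7%).

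Among those, Col8a2 was at 30 and 54.7 in the fibrosarcomas and 309 and 444 in the granulomas (-3.16 ± 0.55, limma adjusted p = 1, DESeq2 adjusted p = 0.000123). Col7a1 was at 216 and 1009 against 1752 and 18080 (-3.59 ± 1.33, limma adjusted p = 1, DESeq2 0.0313). Col9a3, a fibril-associated chain of cartilage, was at 5.4 and 24 against 34.8 and 325 (-3.10 ± 1.36, limma adjusted p = 1). None of these 3 genes overlapped between the tumor types, although the granulomas differed from each other by about 10 times in Col7a1 and Col9a3. Col4a5 went the other way, with 688 and 285 in the fibrosarcomas and 97.3 and 30.2 in the granulomas (3.00 ± 0.79, limma adjusted p = 1, DESeq2 0.042). Col6a5 was at 473 and 24 against 26.1 and 101 (1.05 ± 1.59, limma adjusted p = 1) and overlapped. Its sign reversed to -1.07 without fibrosarcoma IS 2230. Col4a1, the third highest by fitted change, was at 4559 and 12994 against 11998 and 9462 and overlapped too. Of the large fibrillar genes, the values listed above put Col1a1, Col1a2 and Col3a1 of both fibrosarcomas below those of both granulomas, with DESeq2 adjusted p values of 0.0249 for Col1a1 and 7.77e-05 for Col1a2.

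The uninjected sides differed in the opposite sense. Of 32 collagens tested between fibrosarcoma UIS and granuloma UIS, 26 were higher in fibrosarcoma UIS and 6 lower, with a median of 0.85 against 0.02 over all genes. None passed by limma (0% of 14091 genes) or edgeR (0%), DESeq2 called 2 (0.901% of all genes), and 8 had an unadjusted p under 0.05, against 4.06% of all genes. Both that number and the share of all genes fell without either fibrosarcoma UIS library and rose without either granuloma UIS library. The median was 0.64 without fibrosarcoma UIS 2230, 0.83 without UIS 2240 and 1.18 without granuloma UIS 600. Both fibrosarcoma UIS libraries were above both granuloma UIS libraries in 15 collagens (18.9% of all genes) and below them in 0 (18.8%). Col11a1 was at 75.3 and 37.6 in fibrosarcoma UIS and 3.62 and 0 in granuloma UIS, a ratio of 30.7 with an exact 95% counting interval of 10.2 to 152 (4.66 ± 1.03, limma adjusted p = 0.822, DESeq2 0.0169). Col8a2 was at 44.1 and 61.8 against 24.1 and 3.53 (2.32 ± 0.97), and Col11a2 was at 372 and 388 against 224 and 29.4 (2.20 ± 0.98), both with a limma adjusted p of 0.822. In all 3 genes the lowest library was UIS 976 of the granuloma animals. At the other end, Col24a1 was at 2.84 and 25.5 against 43.4 and 7.07, Col25a1 at 5.69 and 10.9 against 7.24 and 31.8, and Col4a4 at 31.3 and 35.2 against 106 and 16.5, all of them overlapping. Without granuloma UIS 600 limma called 18 collagens (37% of all genes), and without UIS 976, the library with the lower muscle sum, 5 (2.58%), with 24 higher, 8 lower and a median of 0.78.

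The interaction term set the change from UIS to IS in fibrosarcoma against that in granuloma, and so joins the tumor and the UIS libraries of both. Its fitted values were negative, that is a smaller rise in fibrosarcoma, for 31 of 36 collagens, with a median of -2.40 against 0.01 over all 15584 genes. None passed by limma (0%) or edgeR (0%), 7 passed by DESeq2, all negative (0.539% of all genes), and 18 had an unadjusted p under 0.05 against 4.92% of all genes. Without UIS 976 fewer collagens, and a smaller share of all genes, did so, and the median was -2.08. The largest were Col11a1 (-7.44 ± 1.5, limma adjusted p = 0.892), whose granuloma UIS values rest on 3 reads, Col8a2 (-5.48 ± 1.21, adjusted p = 0.946) and Col1a1 (-4.48 ± 1.10, adjusted p = 0.946). On the positive side were Col4a5 (3.24 ± 1.16, limma adjusted p = 0.946), Col6a5 (1.34 ± 2.53, limma adjusted p = 0.959) and Col4a4. Col6a5 turned negative without fibrosarcoma UIS 2230, IS 2230 or granuloma UIS 600 (-0.07, -0.78 and -0.36).

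The difference between the species was tested in the same way, for the IS against UIS change of Spalax fibrosarcoma minus that of mouse fibrosarcoma. Of 30 collagens tested, 2 passed, both with a lower change in Spalax, where 3.95% of all 11085 genes passed (2.01% higher and 1.94% lower). The median was -1.05 for the collagens and -0.02 for all genes, and total scaling moved the latter by -0.26. In Col23a1 the change was -3.25 in Spalax and 2.39 in mouse, a difference of -5.64 ± 1.22 (limma adjusted p = 0.0432, edgeR 0.0385), with the IS below the UIS in both Spalax animals and above it in all 3 mice. In Col11a2 the changes were -3.59 and -0.76, a difference of -2.84 ± 0.63 (limma adjusted p = 0.0457, edgeR 0.0438), with both Spalax animals lower by more than 10 times and the mouse groups overlapping. With the animal as a replicate block no collagen passed (limma adjusted p = 0.0877 for Col23a1 and 0.13 for Col11a2), against 0.343% of all genes. Both calls were lost without any 1 library other than mouse IS 1019, where Col23a1 passed, and mouse UIS 512, where Col11a2 did. The number of collagens called was 0 without mouse UIS 1023, IS 1023 or IS 512, where 54, 104 and 258 of all 11085 genes passed. It was 1 without mouse IS 1019 or UIS 512, where 308 and 778 genes passed. Without mouse UIS 1019 it was 2, but from Col18a1 and Col6a1, where 426 genes passed. Without either Spalax UIS library the share of all genes called fell as well. The difference without Spalax UIS 2230 and UIS 2240 was -4.89 and -6.39 for Col23a1 and -2.87 and -2.81 for Col11a2.

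The abundant members did not pass this test. Differences of Spalax minus mouse were -0.97 ± 1.80 for Col1a1, -1.05 ± 1.5 for Col1a2, -1.79 ± 2.09 for Col3a1, 0.49 ± 0.70 for Col4a1 and -1.13 ± 1.03 for Col6a1, each close to or below its SE in size. The spread was too wide to say that the species rose alike. Col24a1, a fibrillar chain of developing bone, gave 2.17 ± 1.48 (limma adjusted p = 0.44), from 144 and 141 against 2.84 and 25.5 in Spalax and 294, 1165 and 153 against 206, 156 and 50.4 in mouse. Col4a2 (0.61) was the second highest. Col9a3 gave -2.60 ± 1.20 (limma adjusted p = 0.251), from 5.4 and 24 against 48.3 and 20.6 in Spalax and 41.3, 12.5 and 25.8 against 13.3, 11.3 and 5.76 in mouse. In the mouse genome 6.07% of the exon bases of Col9a3 lie under another gene.

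**Figure D5:**
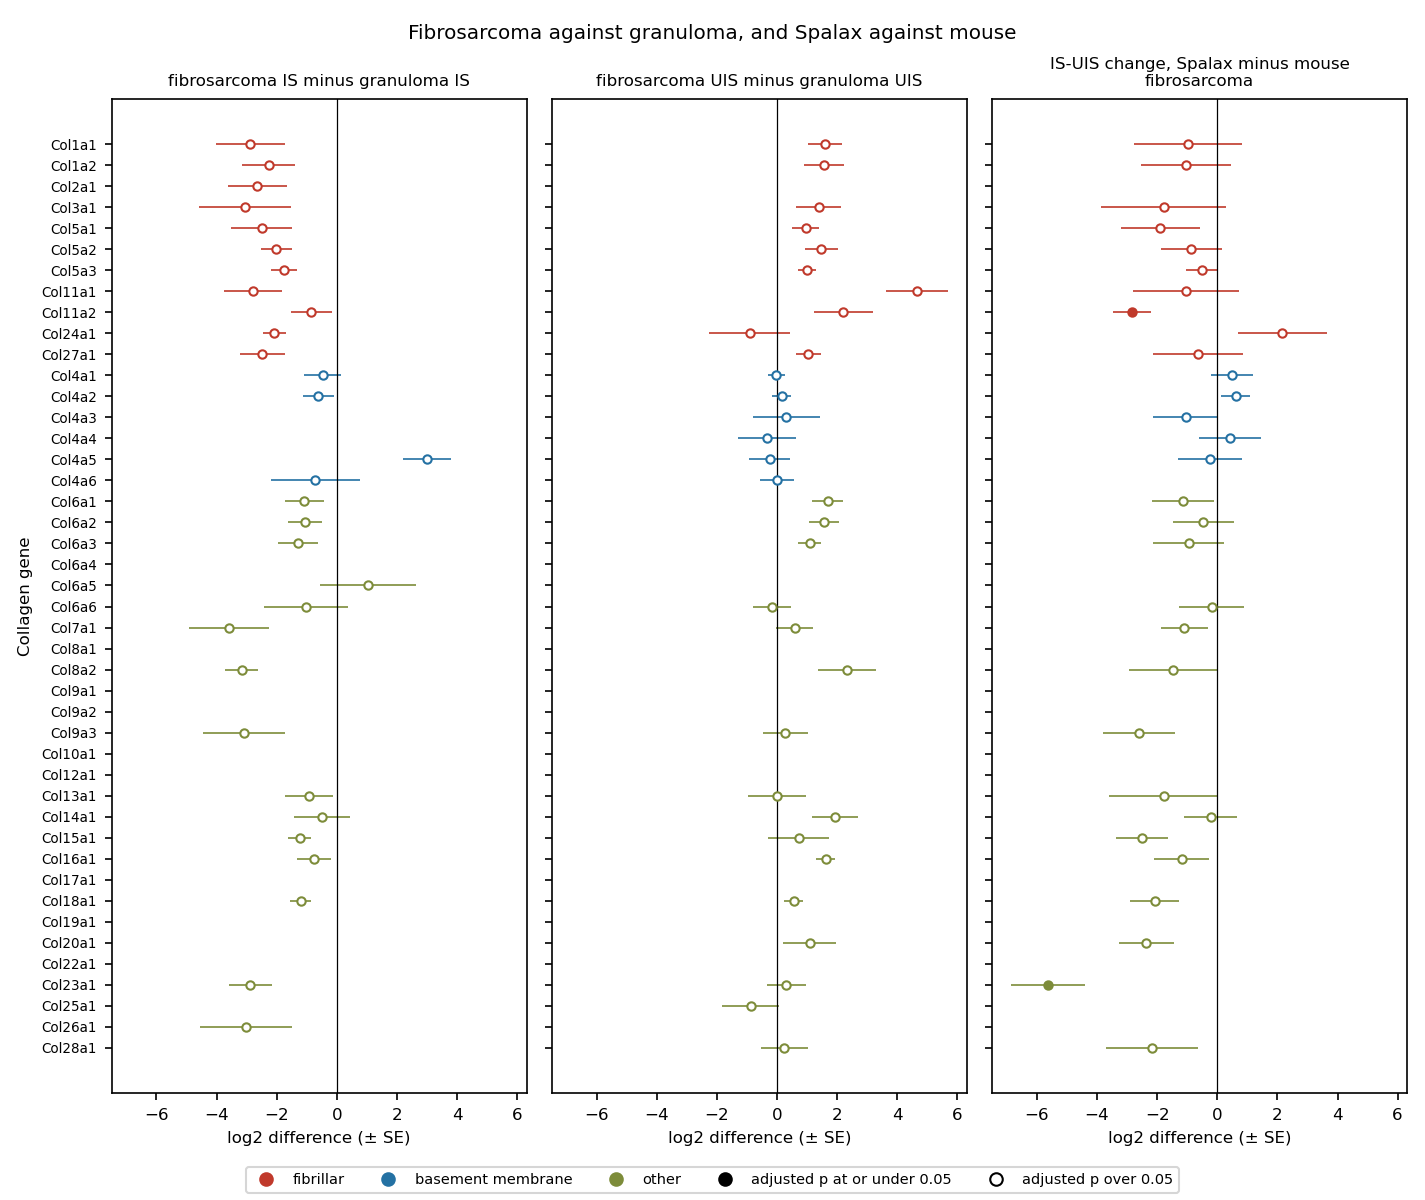
Fitted log2 differences of each collagen tested between fibrosarcoma IS and granuloma IS, between fibrosarcoma UIS and granuloma UIS, and between the IS against UIS changes of Spalax fibrosarcoma and mouse, with bars of ± 1 SE and filled points where the adjusted p is at most 0.05. Of 30 collagens 28 lie left of 0 in the first panel, 26 of 32 lie right of 0 in the second, and Col23a1 (-5.64) and Col11a2 (-2.84) are the only filled points, in the last.

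Muscle away from a tumor was compared with control and with tolerant muscle to ask whether collagens differ without a tumor or away from one. None of the collagens passed in these comparisons by limma. Between Spalax UIS and control, 8 of 29 tested were higher and 21 lower, with a median of -0.42 against -0.03 over all genes. Limma and edgeR called 0% of all 13909 genes, and DESeq2 called 0 collagens and 3.74% of all genes. By limma 4 collagens had an unadjusted p under 0.05, against 16.6% of all genes, and 11 without UIS 2240, against 13.1%. Col15a1, a basement membrane zone collagen of muscle and vessels, did not overlap, and the share of all genes without overlap was not counted here. It was at 1378, 166, 924 and 683 in UIS of animals 600, 976, 2230 and 2240 and at 1686, 2591, 2134 and 1461 in the controls of 1042, 1075, 2095 and 6038 (-1.64 ± 0.56, limma adjusted p = 0.23). The summed endothelial markers, of which none was at 0, did not overlap between these groups either. They were 8160 to 9520 in UIS and 10311 to 13104 in control. Pecam1, Kdr and Tek of that list did overlap, with Pecam1 at 5081 in UIS 976 and 4481 in control 1042. The part of these markers in the level of Col15a1 was not tested. Col8a2 was at 24.1, 3.53, 44.1 and 61.8 against 86.1, 102, 41.2 and 61.7 (-1.55 ± 0.75, limma adjusted p = 0.33), and Col9a3 at 16.9, 40, 48.3 and 20.6 against 86.1, 72.8, 46.2 and 123 (-1.40 ± 0.44, limma adjusted p = 0.22). Both overlapped at 1 control library or more. On the higher side, Col13a1, a transmembrane collagen of the neuromuscular junction, was at 41, 280, 91 and 130 against 60.7, 92.6, 16.2 and 47.7 (1.22 ± 0.65, limma adjusted p = 0.367). Col7a1 was at 162, 518, 441 and 430 against 165, 260, 186 and 102 (1.07 ± 0.41, limma adjusted p = 0.256), with UIS 600 inside the control range. Col11a2 was at 224, 29.4, 372 and 388 against 123, 161, 158 and 70.6. Without UIS 976, 11 were higher and 18 lower, with a median of -0.26.

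Between tolerant and control, 18 of 30 collagens were higher and 12 lower, with a median of 0.23 against -0.03 over all genes, and total scaling moved the latter by 0.117. Limma and edgeR called 0% of all 14020 genes, DESeq2 called 0 collagens and 0.428% of all genes, and 1 collagen, Col7a1, had an unadjusted p under 0.05, against 5.23% of all genes. Without tolerant 2251, 12 were higher and 18 lower, and the median was -0.12. In that fit 2 had an unadjusted p under 0.05, Col7a1 and Col4a1, against 5.71% of all genes. Without 2375 there were also 2, against 5.35%. Col7a1 was at 518, 422, 274 and 411 in tolerant 2218, 2251, 2261 and 2375 and at 165, 260, 186 and 102 in the controls of 1042, 1075, 2095 and 6038, so that every tolerant library was above every control (1.22 ± 0.32, limma adjusted p = 0.628). Without 2251 the change of Col7a1 was 1.19 ± 0.35 (limma adjusted p = 0.739). Col16a1 was at 658, 2598, 641 and 271 in tolerant and 354, 662, 277 and 215 in control (1.10 ± 0.61, limma adjusted p = 0.923), and was 0.50 ± 0.43 without 2251. Col11a1 was at 26.4, 197, 14.2 and 4.02 against 3.31, 68.3, 8.73 and 5.97 (1.09 ± 1.17, limma adjusted p = 0.93), and was 0.10 ± 0.99 without 2251. Both overlapped with control. At the lower end, Col15a1 was at 1551, 1988, 1622 and 229 in tolerant, Col4a1 at 1279, 2629, 2434 and 1238 and Col4a4 at 48.9, 14.3, 48.2 and 29.5, against 1461 to 2591, 1941 to 3473 and 27.4 to 69.6 in control, all overlapping. The endothelial sum was 6985 to 9894 in tolerant, below every control, although Cdh5, Kdr, Tek and Tie1 of that list overlapped. The part of these markers in the levels of Col15a1 and Col4a1 was not tested.

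The abundant chains show how far tolerant 2251 stood from the other tolerant libraries. Col1a1 was at 1580, 2180 and 302 in tolerant 2218, 2261 and 2375, against 1114 to 3844 in control, and at 39810 in 2251. Col3a1 was at 4218, 7701 and 629, against 3741 to 8852 in control, and at 67242 in 2251. Col6a3 was at 1744, 2365 and 1067, against 1473 to 3631, and at 10261 in 2251. Col1a2 and Col6a1 in 2251 were at 26753 and 14774, against 600 to 3400 and 922 to 3645 in the others. The type IV chains of 2251 did not stand out, with Col4a1 at 2629 and Col4a2 at 2598, within the control ranges of 1941 to 3473 and 1779 to 3160. The keratinocyte, fibroblast and macrophage sums were also higher in this library, and their part in these values was not tested.

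Between Spalax UIS and tolerant, 10 of 32 collagens were higher and 22 lower, with a median of -0.71 against -0.00 over all genes, which total scaling moved by -0.118. Limma and edgeR each called 0 collagens and 0.00713% of all 14029 genes, and DESeq2 0 and 0.271%. By limma 2 collagens had an unadjusted p under 0.05, against 5.12% of all genes. There were 5 without tolerant 2375, against 8.43%. There was 1 without any of tolerant 2218, tolerant 2261, UIS 600 or UIS 2240, against 3.27% to 3.92%. Without tolerant 2251 the median was -0.09, with 12 higher and 20 lower, and without UIS 976 it was -0.36, with 10 higher and 22 lower. Col28a1, a collagen of peripheral nerve, was at 25.3, 34.2, 66.8 and 18.2 in UIS 600, 976, 2230 and 2240 and at 141, 75.8, 112 and 49.6 in tolerant (-1.42 ± 0.49, limma adjusted p = 0.88). Col9a3 was at 16.9, 40, 48.3 and 20.6 in UIS and 119, 73.6, 90.9 and 36.2 in tolerant (-1.32 ± 0.49, limma adjusted p = 0.88). Col11a1 was at 3.62, 0, 75.3 and 37.6 in UIS and 26.4, 197, 14.2 and 4.02 in tolerant (-1.23 ± 1.5, limma adjusted p = 0.908). Each of the 3 overlapped with tolerant at 1 library or more. On the higher side, Col24a1 was at 43.4, 7.07, 2.84 and 25.5 in UIS and 1.32, 40.5, 10.9 and 1.34 in tolerant, Col25a1 at 7.24, 31.8, 5.69 and 10.9 against 2.64, 11.3, 16.4 and 4.02, and Col13a1 at 41 to 280 against 36 to 260, all overlapping. These 3 comparisons share their control, tolerant or UIS libraries. Indexing differs between UIS and either other group, the side between tolerant and either other group, and the mix of sexes between all 3.

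In mouse, UIS was compared with control muscle, and 6 of 40 collagens were higher and 34 lower, with a median of -1.12 against -0.02 over all genes, which total scaling moved by -0.269. Limma and edgeR called 0 collagens and 0% of all 14792 genes, DESeq2 called 3 (Col7a1, Col12a1 and Col14a1, with 2.31% of all genes), and 5 had an unadjusted p under 0.05, against 11% of all genes. Without UIS 1019 there were 18 such collagens (15.7% of all genes), without control M1 16 (4.64%) and without control M5 3 (3.99%). Limma called none in any of these fits. Col14a1 was at 131, 118 and 40.3 in UIS 1019, 1023 and 512 and at 609, 701 and 1462 in control M1, M2 and M5 (-3.31 ± 0.54, limma adjusted p = 0.293, DESeq2 4.48e-06). Col12a1 was at 100, 93.9 and 31.7 against 439, 356 and 1096 (-3.03 ± 0.59, limma adjusted p = 0.293, DESeq2 0.000158). Both chains coat fibrils in tendon and fascia, and in both all UIS libraries were below all controls. Col3a1 was at 10928, 746 and 289 in UIS and 1314, 14387 and 17676 in control and overlapped (-2.38 ± 1.47, limma adjusted p = 0.529). Col7a1 went the other way, at 839, 969 and 1002 in UIS and 190, 543 and 178 in control, without overlap (1.82 ± 0.44, limma adjusted p = 0.344, DESeq2 0.0379). Col19a1 was at 2.42, 11.3 and 56.1 against 6.52, 2.01 and 16.3, and Col24a1 at 206, 156 and 50.4 against 42.4, 345 and 71.6, both overlapping. The summed fibroblast markers were 11488, 10546 and 4662 in UIS against 21875 to 29773 in control. Of that list, Pdgfra and Thy1 of UIS 1019 (1758 and 579) were above every control, and Lum overlapped. The tendon markers summed to 202, 278 and 75 against 623 to 2660, although Scx of that list overlapped. The adipocyte markers summed to 38678, 75734 and 7057 against 86872 to 130809, although Adipoq of that list overlapped. The keratinocyte sum was slightly higher, 372, 403 and 479 against 282 to 344, with 4 to 7 of 10 markers at 0 in UIS. Trp63 alone gave 237, 279 and 399 of it, against 213, 120 and 202 in control M1, M2 and M5. Krt10 and Sfn overlapped, and Krt5, Krt15, Krt1 and Dsg3 were at 0 in every UIS library. The sums of these 4 lists did not overlap between the groups, and their part in these differences was not tested.

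Levels of different genes can be compared per length in mouse, where exon lengths were at hand. In the tumors Col3a1 had 6476 ± 759 (SD, n = 3) normalised counts per kb of exon, followed by Col1a1 with 4218 ± 1814, Col1a2 with 3380 ± 154 and Col6a1 with 2728 ± 88.7, and Col4a1 with 1541 ± 704. In control muscle Col3a1 (1133 ± 882, SD, n = 3), Col4a1 (951 ± 467), Col4a2 (597 ± 260) and Col1a1 (523 ± 453) had the highest means, and their order was within the spread. In UIS the means of Col3a1 (406 ± 613) and Col1a1 (228 ± 345) rested on animal 1019, with Col3a1 at 1113, 75.96 and 29.48 in 1019, 1023 and 512 and Col1a1 at 626, 35.04 and 22.37. Col4a1 (518 ± 135) and Col4a2 (397 ± 32.5) were steadier, with Col4a1 at 585.5, 605.9 and 363.4, above Col3a1 in 1023 and 512 and below it in 1019. Exon length was taken over all annotated transcripts.

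The chains of one molecule were not at a fixed ratio. Col1a1 over Col1a2, as normalised counts, was 1.99 in granuloma 600 and 0.879 in granuloma 976, 1.42 in fibrosarcoma 2230 and 0.525 in 2240, and 0.605 to 0.917 in the Spalax controls. In the mouse tumors it was 0.696, 0.352 and 0.951. Type I collagen is a trimer with more Col1a1 than Col1a2 chains, and these count ratios are not corrected for length. Col4a1 over Col4a2 was steadier, at 0.933 to 1.54 over all 16 Spalax libraries and 1.09 to 1.95 over all 9 mouse libraries. Col4a1 and Col4a2 stand head to head on mouse chromosome 8 with 21 bases between their starts, as do Col4a4 and Col4a3 on chromosome 1 with 72 bases and Col4a6 and Col4a5 on chromosome X with 1309 bases. The 2 genes of each of the first 2 pairs had fitted changes of the same sign in each IS against UIS comparison. Of the third pair, Col4a6 was not called in either Spalax comparison, at 21.8 and 10.9 in granuloma IS against 19.3 and 21.2 in UIS, and at 1.8 and 35 in fibrosarcoma IS against 21.3 and 19.4.

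The genes that build, crosslink, bind and cut collagen were counted from lists, to be read against the 11.7%, 17.4% and 22.8% of all genes that rose in granuloma, Spalax fibrosarcoma and mouse (medians -0.01, 0.03 and 0.11). Of 20 genes of collagen biosynthesis, 14 rose in granuloma, 11 rose and 1 fell in Spalax fibrosarcoma, and 13 rose and 1 fell in mouse, with medians of 2.92, 1.59 and 1.71. Serpinh1, the collagen chaperone, rose by 5.06 in granuloma and 3.02 in mouse, and gave 2.16 ± 0.71 in Spalax fibrosarcoma (limma adjusted p = 0.0738). Plod2, a lysyl hydroxylase, rose by 4.63, 3.51 and 3.41. P4hb, a subunit of prolyl hydroxylase, rose by 1.42 in Spalax fibrosarcoma and 1.09 in mouse, and gave 1.64 ± 0.58 in granuloma (limma adjusted p = 0.0943). Mia3, which loads collagen for export, did not pass in any of them. Of the genes of processing and crosslinking, 8 of 13 rose in granuloma, 7 of 13 in Spalax fibrosarcoma and 9 of 12 in mouse, with none lower. Among them were Pcolce, an enhancer of propeptide cleavage (4.79, 2.77 and 2.51), and the crosslinking enzymes Loxl1 (4.54 and 3.89 in the Spalax tumors) and Loxl2 (4.97, 3.79 and 4.15). Of 9 collagen receptors tested, 2 rose and 1 fell in granuloma, 1 rose and 1 fell in Spalax fibrosarcoma, and 6 rose in mouse. Itgb1, the shared integrin chain, rose in mouse by 1.38, and gave 0.79 ± 0.55 in granuloma and 1.09 ± 0.33 in fibrosarcoma (limma adjusted p = 0.326 and 0.0623). Of 6 genes of collagen degradation, 5 rose in granuloma, 5 in Spalax fibrosarcoma and 4 in mouse, with the gelatinase Mmp2 at 4.19, 4.27 and 3.36 and the membrane-bound Mmp14 at 4.83, 5.21 and 4.19. Of the fibroblast markers 5 of 7 rose in granuloma, 0 of 7 in Spalax fibrosarcoma (limma; 0 at an unadjusted p under 0.05) and 2 of 7 in mouse, while macrophage markers rose in 4, 5 and 3 of 6. The part of these cells in the collagen changes was not tested.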

How the data were processed

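RNA-seq libraries of Spalax (16) and mouse (9) muscle or tumor were analysed. The authors trimmed and aligned the reads (TopHat 1.4.1, HTSeq, DESeq and, for mouse, build GRCm38 are named in the submitters' notes) and counted them per gene. The strand setting of the counting is not given in the sources used here. The deposited values are a signal of normalised read counts, that is reads divided by 1 size factor per library. Divided by what 1 read is worth, 100% of the values were whole reads (tolerance 0.1) in each library, which recovered the reads and the depth. For Spalax, 2387 gene names held a comma in place of a letter t, which was restored.

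Log2(value + 1) was tested with limma 3.58.1 (lmFit and eBayes with trend, R 4.3.3) on the libraries of the groups compared, for genes that reached 10 in a number of libraries equal to the size of the smaller group. P-values were adjusted by Benjamini-Hochberg over all genes tested, with a threshold of 0.05. Differences of log2(value + 1) understate the change of low genes. Count tests on the recovered reads were edgeR 4.0.16 (quasi-likelihood, TMM) and DESeq2 1.42.0. They called 19 and 25 collagens in granuloma (20.2% and 36.5% of all genes) and 16 and 24 in Spalax fibrosarcoma (34.7% and 43.3%). In mouse they called 23 and 23 (43.2% and 53.7%). Other alternatives were scaling by total reads, a pseudocount of 0.5, no filter, 1 model over all groups, a replicate block and leaving out each library. The fits were tested on simulated counts. IS and UIS libraries with the same number are from the same animal, which is where the pairing comes from. Deviations from the group means correlated within animals at 0.0092 in granuloma, -0.0019 in Spalax fibrosarcoma and 0.1254, 0.0469 and 0.1779 in mouse.

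Values in every library are given for the 3 members of each class with the highest mean over the Spalax libraries and, for each comparison, for the 3 members with the largest positive and the 3 with the largest negative fitted change. The others are given by counts, ranges or 1 value, and partner genes by counts with at most 4 named per list. The members and lists were chosen with earlier results of these data known. P-values weigh each difference against the spread between these libraries, of which some groups hold only 2. Intervals (95%) and the floor of 3 reads cover counting error only.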

Additional observations from a re-analysis of the deposited data

Results flagged for a closer look

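In groups of 4 libraries a value was singled out where its gap to the nearest of the others was large beside the range of the group (Dixon's criterion at 95%). Of 35 collagens in 60 groups 16 values were singled out. For normally distributed values chance gives about 1 in 20 groups, but these counts were not log-transformed. The 35 were collagens named in the comparisons, some of which hold tolerant 2251, or abundant in Spalax. Of the 16 values, 12 belong to tolerant 2251. In that library Col1a1 was at 39810 (the other tolerant libraries at 302 to 2180), Col1a2 at 26753 (600 to 3400), Col3a1 at 67242 (629 to 7701), Col5a1 at 9325 (449 to 1758), Col5a2 at 6440 (331 to 1078) and Col11a1 at 197 (4.02 to 26.4). Col27a1 was at 711 (258 to 307) and Col6a2 at 11013 (541 to 2295), with Col6a3 at 10261 (1067 to 2365) and Col6a5 at 1927 (2.68 to 5.47). Col16a1 was at 2598 (271 to 658) and Col18a1 at 1773 (464 to 561). All 12 were higher, and they are genes of 1 library and so no independent observations. Tolerant 2375 had Col13a1 at 260 (36 to 50.2).

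In control 1075 Col5a2 was at 1258 (the other controls at 668 to 766), Col5a3 at 1934 (404 to 631) and Col11a1 at 68.3 (3.31 to 8.73).

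The change from UIS to IS differed between Spalax fibrosarcoma and mouse fibrosarcoma, tested as an interaction term, in Col11a2 (-2.84) and Col23a1 (-5.64), and neither passed with the animal as a replicate block.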

How the results depend on the processing

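DESeq2 called 3 collagens in mouse UIS against control (2.31% of all genes) and 9 in fibrosarcoma IS against granuloma IS (1.05%). It called 2 in the same comparison of UIS (0.901%) and 7 in the interaction of fibrosarcoma and granuloma (0.539%). Limma called 0 collagens and 0% of all genes each time. The species interaction had 2 by limma, 1 with scaling by total reads and 0 with the replicate block. Of all 11085 genes 438, 413 and 38 passed in these fits. Without the filter 1 collagen passed, against 607 of 14537 genes. Leaving out 1 library at a time gave 2 to 19 collagens called in granuloma, 0 to 27 in Spalax fibrosarcoma, 20 to 24 in mouse, 0 to 18 between the UIS of fibrosarcoma and granuloma, and 0 to 2 in the species interaction. Col6a5 ranged from -1.07 (sign reversed, without fibrosarcoma IS 2230) to 3.17 between fibrosarcoma IS and granuloma IS, and from -0.78 to 3.47 in the interaction, where it was also reversed at -0.07 without fibrosarcoma UIS 2230 and -0.36 without granuloma UIS 600. The cause was not tested. Over all values compared with limma, 456 kept direction and side of the threshold without 1 library, 109 lost the call, 7 gained it and 4 reversed. With DESeq2 88 kept it and 17 gained a call, and with edgeR 104 kept it and 3 lost a call. The replicate block moved the calls of Col4a5 and Col23a1 in mouse, Col7a1 in granuloma, Col14a1 in Spalax fibrosarcoma and Col11a2 and Col23a1 in the species interaction, and of no other collagen named. A value of 10 rests on few reads, which limits the low genes.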
